A study of Homo sapiens with 2 samples.

Results

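The genes described here were 10 genes of the NF-kappaB pathway and of its interleukin response, namely NFKB1, NFKB2, RELA, RELB, NFKBIA, TNFAIP3, BCL3, IL1A, IL1B and IL6. They were chosen by name, with earlier results of these data known. Each RUNX1 peak with its summit in a gene's RefSeq interval, or no farther than 50 kb from either end, was assigned to that gene. By this rule 13 of the 13591 peaks in the list belonged to the 10 genes, which are 10 of 20033 protein-coding genes. RUNX1 binding was measured by ChIPseq in MCF10A, a line of non-tumorigenic human mammary epithelium. In the cells of both libraries RUNX1 had been deleted (the methods of the study describe deleted lines as single cell colonies), a lentiviral RUNX1 gene inducible by doxycycline had been added, and doxycycline had been given at 1 µg/ml for 24 h, so RUNX1 came from the added gene and not from its own locus. The paper reports that a first ChIPseq of endogenous RUNX1 gave no strong binding, and that this inducible line was used instead. The peaks thus describe induced RUNX1 and not endogenous RUNX1. There was 1 library from an anti-RUNX1 immunoprecipitate (80338845 tags kept) and 1 library of input DNA (87410774 tags kept). No value has a replicate, no cells without RUNX1 were profiled here, and the intervals given cover counting error only.

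NF-kappaB is a family of dimeric transcription factors that is held in the cytoplasm by IkappaB proteins and released when IkappaB kinase is switched on by cytokines or microbial products. In epithelial cells it induces cytokines, chemokines and survival genes. It also induces its own inhibitors, which close a negative feedback loop. RUNX1 binds DNA at short sites together with CBFB. A ChIPseq peak shows where the immunoprecipitate was enriched and does not show whether a gene was turned up or down.

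Of the 10 genes, 9 had at least 1 peak in the gene or within 50 kb, and IL6 had 0. The same rule found a peak for 52.1% of all protein-coding genes, and for 51.0% of the 15079 whose length lay in the range of the 10 genes (3.24 to 116 kb). A summit lay inside the gene for 5 of the 10 (NFKB1, NFKBIA, TNFAIP3, BCL3 and IL1A), against 18.7% of all protein-coding genes and 14.8% of those in that length range. With a fold enrichment of at least 5 required, 5 of the 10 kept a peak within 50 kb, against 35.1% of all protein-coding genes. The numbers of peaks were 3 for BCL3, 2 each for NFKBIA, IL1A and IL1B, and 1 each for NFKB1, NFKB2, RELA, RELB and TNFAIP3. The median was 1 peak per gene, as it was over all protein-coding genes. The distance from the gene to its nearest summit had a median of 0.835 kb over the 10 genes and of 45.5 kb over all protein-coding genes. These shares and medians stand side by side as descriptions of 1 peak list, and no test was made of them.

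**Figure D1:**
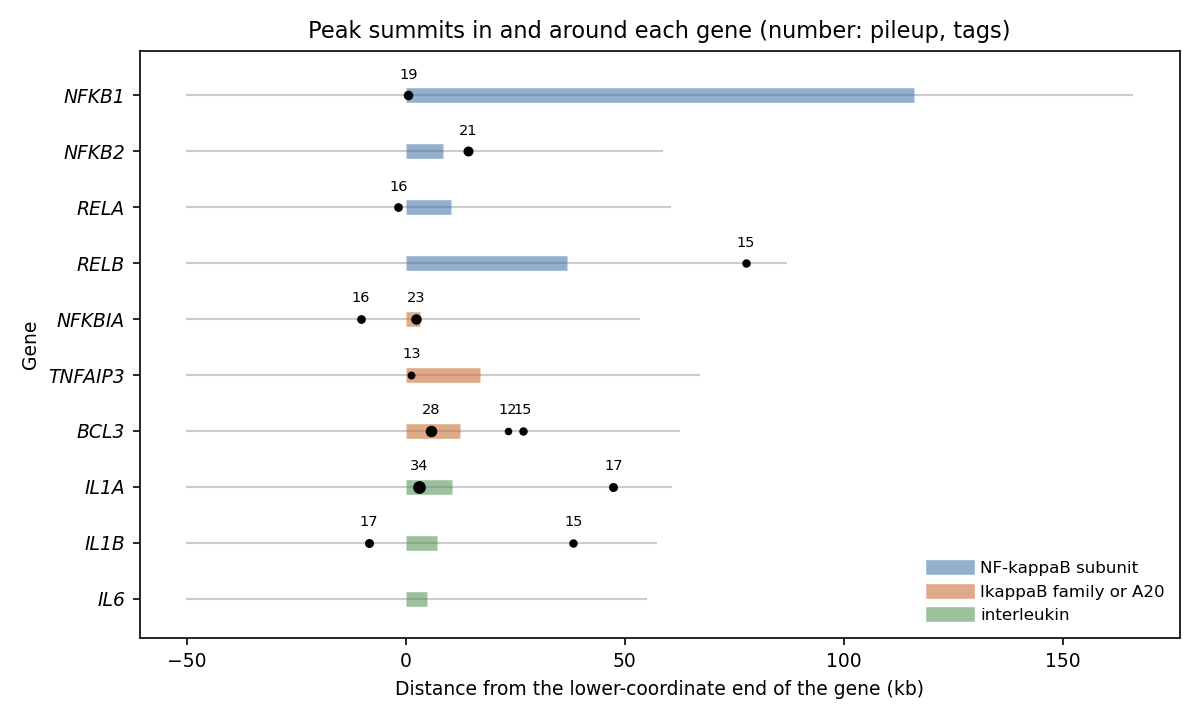
Positions of the 13 peak summits around the 10 genes. The x axis gives the distance in kb from the lower-coordinate end of each gene, coloured bars are the gene intervals by role, grey lines reach 50 kb to either side, and black points are summits, larger with higher pileup, with the pileup in tags beside them. A peak shared by IL1A and IL1B is drawn in both rows, and IL6 has none.

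NFKB1 encodes p105, which is processed to the p50 subunit. It spans 102501359 to 102617302 on chromosome 4 (GRCh38, gene ID 4790) and had a single peak, from 102501862 to 102501983. The pileup, which is the number of ChIP tags extended to 74 bp that cover the summit, was 19 tags (exact 95% Poisson interval 11.4 to 29.7). The fold enrichment over the local background was 4.28 and the −log10 q was 4.99. The local background at this peak was 1.67 times the genome-wide level of 2.20 tags. The summit lay at position −8 relative to the second of the 2 transcription starts that RefSeq lists for NFKB1, at 102501934 on the plus strand. It also lay in NFKB1-AS1, a long non-coding RNA gene, and the peak cannot be given to 1 gene of this pair. All 122 bases of the peak fell in the promoter window of that start, taken as 250 bases before to 50 after it.

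Of the 9 genes with a listed promoter window, NFKB1 was the one with a peak over it, against 2.44% of 15842 protein-coding genes. Its 250 bases before the second start, chr4:102501684-102501933 on the plus strand (RefSeq, GRCh38.p14), are shown because the peak lies over them. The capitals mark the 72 of these bases that are in the peak.
NFKB1: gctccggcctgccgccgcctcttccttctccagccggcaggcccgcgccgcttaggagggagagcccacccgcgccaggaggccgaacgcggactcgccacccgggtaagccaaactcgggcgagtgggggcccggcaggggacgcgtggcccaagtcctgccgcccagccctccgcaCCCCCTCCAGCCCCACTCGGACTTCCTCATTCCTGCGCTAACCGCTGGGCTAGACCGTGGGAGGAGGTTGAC

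NFKB2 encodes p100, the precursor of the p52 subunit of the non-canonical pathway. It lies at 102394110 to 102402529 on chromosome 10 (gene ID 4791). Its peak, from 102408210 to 102408388, had 21 tags (13.0 to 32.1), a fold enrichment of 6.87 and a −log10 q of 10.3, the highest of the peaks given to the 4 subunit genes. The summit lay 5.80 kb past the end of NFKB2, inside the neighbouring gene PSD.

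RELA encodes p65, the subunit that carries most of the transactivation in the canonical pathway. It lies at 65653601 to 65663857 on chromosome 11 (gene ID 5970). Its peak of 16 tags (9.15 to 26.0), 181 bp long, had a fold enrichment of 3.64, which 90.2% of the peaks in the list exceeded. The summit lay 1.67 kb beyond the 3′ end of RELA and 1.02 kb from SIPA1, the nearest protein-coding gene.

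RELB, at 45001464 to 45038192 on chromosome 19 (gene ID 5971), encodes the partner of p52. Its peak lay 40.98 kb away, inside GEMIN7, with 15 tags (8.40 to 24.7), a fold enrichment of 3.42 and a −log10 q of 2.47. Hence of the 4 subunit genes, 1 had a peak in its own interval and the other 3 had theirs in or nearer to another protein-coding gene. The local background was 1.67 times the genome level at the RELA and RELB peaks and equal to it at the NFKB2 peak. The fold enrichment is pileup plus 1 over local background plus 1, so by definition it is lower where the background is higher at a given pileup. At 16 tags it was 3.64 at RELA and 5.31 at the weaker NFKBIA peak, where the background was at the genome level. Why the background was raised was not tested.

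NFKBIA encodes IkappaBalpha, the inhibitor that NF-kappaB induces most promptly. The gene lies at 35401513 to 35404749 on chromosome 14 (gene ID 4792) and is transcribed from the minus strand. The stronger of its 2 peaks, from 35403735 to 35403942, had 23 tags (14.6 to 34.5), a fold enrichment of 7.50 and a −log10 q of 12.2. Its summit lay inside the gene, 930 bp downstream of the start. The second peak, of 16 tags (9.15 to 26.0) and 91 bp, lay 10.3 kb beyond the 3′ end. NFKBIA was the nearest protein-coding gene to both peaks, and its window held 0 other protein-coding genes.

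TNFAIP3 encodes A20, a ubiquitin-editing enzyme that ends NF-kappaB signalling. It spans 137866349 to 137883312 on chromosome 6 (gene ID 7128). Its peak, from 137867500 to 137867605, was one of the weaker ones, with 13 tags (6.92 to 22.2), a fold enrichment of 4.37 and a −log10 q of 3.56. In the list, 87.4% of the peaks were higher. The summit lay inside the gene, 339 bp downstream of the start, where the non-coding gene WAKMAR2 also lies.

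BCL3 encodes an atypical IkappaB protein of the nucleus that acts with p50 or p52 dimers. It lies at 44747705 to 44760044 on chromosome 19 (gene ID 602). The peak inside it, from 44753389 to 44753617, had 28 tags (18.6 to 40.5), a fold enrichment of 9.06 and a −log10 q of 17.3, and its summit lay 4.77 kb downstream of the start. The other 2 peaks, of 12 tags (6.20 to 21.0) and 15 tags (8.40 to 24.7), were 79 and 75 bp long and lay 10.9 and 14.4 kb past the gene, nearer to CBLC. NFKBIA, TNFAIP3 and BCL3 thus each had 1 summit in their own interval.

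The summits at NFKBIA and TNFAIP3 lay within 1 kb of a start but downstream of the promoter window. The 250 bases before each start (RefSeq, GRCh38.p14) are shown because these promoters hold the sites through which NF-kappaB drives its own inhibitors. Capitals mark matches to the NF-kappaB consensus, searched on both strands, with the plus strand given for TNFAIP3 (chr6:137867009-137867258) and the minus strand for NFKBIA (chr14:35404750-35404999).
NFKBIA: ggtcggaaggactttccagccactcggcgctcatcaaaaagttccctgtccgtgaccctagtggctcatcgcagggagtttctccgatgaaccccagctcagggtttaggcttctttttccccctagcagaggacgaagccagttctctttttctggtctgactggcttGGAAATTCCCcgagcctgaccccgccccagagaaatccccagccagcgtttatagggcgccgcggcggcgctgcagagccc
TNFAIP3: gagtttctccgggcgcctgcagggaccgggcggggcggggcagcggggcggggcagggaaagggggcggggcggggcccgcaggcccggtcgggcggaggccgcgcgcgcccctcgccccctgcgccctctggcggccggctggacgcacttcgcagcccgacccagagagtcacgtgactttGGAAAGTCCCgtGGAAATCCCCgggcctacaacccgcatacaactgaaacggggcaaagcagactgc

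Of the 14 promoter windows of the 9 genes, 7 held an NF-kappaB consensus match, against 5.91% of all 35116 listed windows of 300 bp. They belonged to 6 genes, namely NFKB1, NFKB2 (2 windows), NFKBIA, TNFAIP3, BCL3 and IL6. In NFKB1 the match was in the window of the other start, and 0 peaks lay over it. The RUNX core was searched as TGTGGT or TGCGGT on both strands and was found in 1 of the 14 windows, that of NFKB2, at −17 to −12 from its first start, where 0 peaks lay. It occurred in 19.6% of all listed windows, in 56.1% of the 415 windows of protein-coding genes with a peak over them and in 18.3% of the 21783 without. The window of NFKB1 under the peak held 0 matches.

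IL1A and IL1B encode interleukin-1alpha and interleukin-1beta, which act through the same receptor to switch on NF-kappaB. The first is made by epithelial cells and can act as an alarm signal when they are damaged. IL1A lies at 112773925 to 112784493 on chromosome 2 (gene ID 3552), on the minus strand. The peak inside it, from 112776327 to 112777134, was the tallest and longest of the 13. It had 34 tags (23.5 to 47.5), a fold enrichment of 10.9, a −log10 q of 24.0 and a length of 808 bp. Of the list, 5.23% had more tags at the summit, and 13 of the 13591 peaks were longer. Among the 96 peaks of the same pileup the median length was 294.5 bp and 1 was longer. Its summit lay 7.42 kb downstream of the nearer of the 2 listed starts and its local background was at the genome level.

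A second peak, from 112821249 to 112821442, lay between both genes, 36.8 kb from IL1A and 8.44 kb past the 3′ end of IL1B. It had 17 tags (9.90 to 27.2) and a fold enrichment of 5.62, and it was counted for each of them, since their windows overlap. IL1B (112829751 to 112836779, gene ID 3553) had 0 summits inside it. Its other peak lay 31.2 kb upstream of its start with 15 tags (8.40 to 24.7), a fold enrichment of 2.86 and a −log10 q of 1.49, the lowest of the 13. The local background there was 2.09 times the genome level, the highest of the 13. This peak is lost when a q limit of 0.01 is used.

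IL6, at 22727200 to 22731998 on chromosome 7 (gene ID 3569), encodes interleukin-6, a classical NF-kappaB target. The nearest summit was 127 kb away, nearest to TOMM7, and 26.3% of all protein-coding genes were farther from a summit. Its window held 0 other protein-coding genes. From 1 peak list, absent binding and binding below the q limit cannot be told apart.

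**Figure D2:**
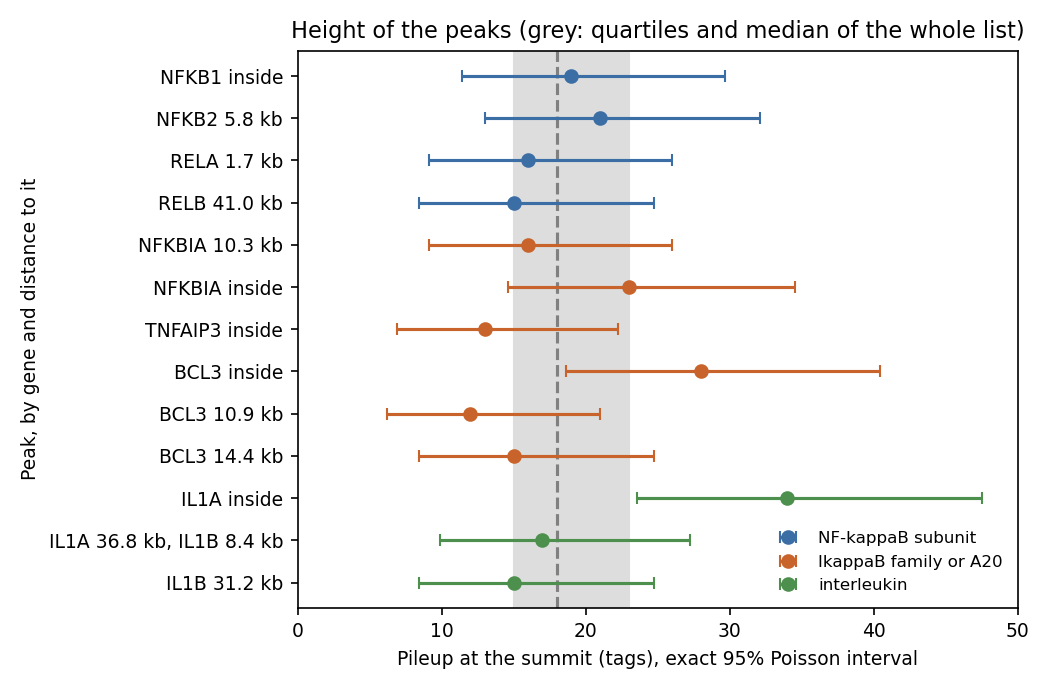
Pileup at the summit (x axis, tags) of the 13 peaks, named by gene and distance to it (y axis). Points are the deposited pileups coloured by role, bars are exact 95% Poisson intervals, the grey band spans the quartiles of the whole list (15 to 23 tags) and the dashed line is its median of 18. The peaks inside IL1A and BCL3 are the 2 above the band, and their intervals are the 2 that lie wholly above the median.

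Taken as a set, the 13 peaks were not tall. Their pileups ran from 12 to 34 tags with a median of 16, against a median of 18 (quartiles 15 and 23) over the list. The median fold enrichment was 5.00 against 5.06, the median −log10 q was 5.09 against 5.90, and the median length was 162 bp against 153 bp. Above the median pileup of the list were 5 of the 13, and 2 were above its upper quartile. The highest pileup of a gene had a median of 19 tags over the 9 genes with a peak, against 20 over the 10432 protein-coding genes with one. The Poisson intervals of 11 of the 13 peaks included the median of the list, so that their heights could not be told from it at this depth. The same holds for most peaks of the list and does not set these 11 apart. The interval of a peak of 27 tags still included the median, and 12.8% of the list had more tags. At 10 tags, the lowest pileup of the list, the interval included it too, so no interval could lie wholly below it.

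Among these 13, the peaks with a summit inside a gene of the list were on the whole the higher ones. Those 5 had pileups of 13 to 34 tags (median 23) and lengths of 106 to 808 bp (median 208), whereas the 8 outside had 12 to 21 tags (median 15.5) and 75 to 194 bp (median 129.5). The ranges overlap, because the TNFAIP3 and NFKB1 peaks with 13 and 19 tags lay within the range of those outside. Summits inside and outside genes were not compared over the whole list. Near the other pathway genes, described below, the tallest summit outside its gene had 56 tags and the tallest inside had 33. For 5 of the 13 peaks another protein-coding gene (PSD, SIPA1, GEMIN7 or CBLC) was nearer. The local background was at the genome level, within 1%, in 9 of the 13. The median ratio of local background to genome level was 1.00 over the 13 and 1.11 over the list. At those 9 the fold enrichment and −log10 q follow from the pileup and are not separate measures.

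**Figure D3:**
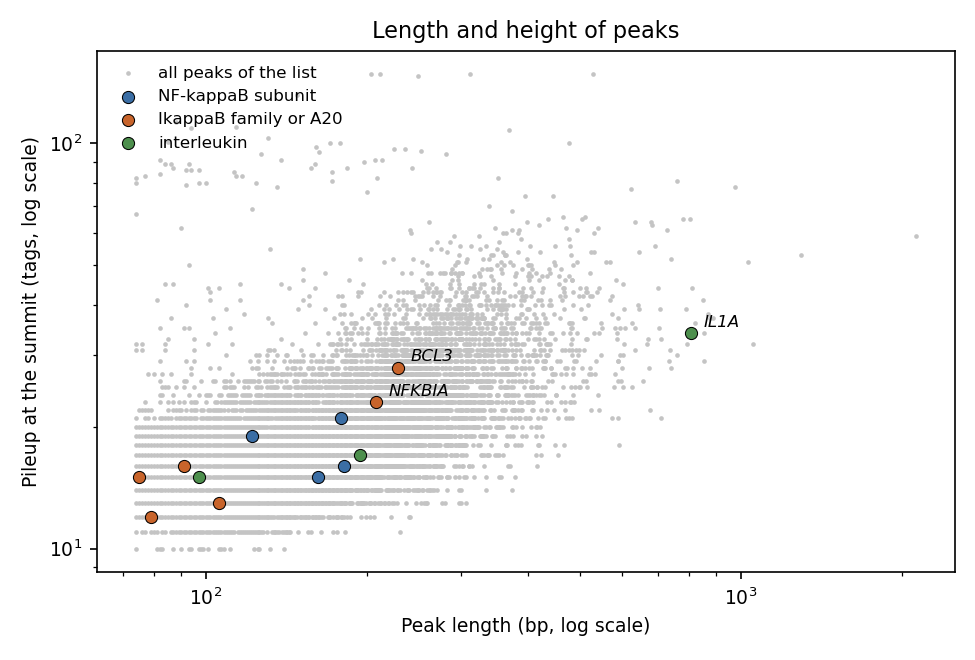
Length (x axis, bp, log scale) and pileup (y axis, tags, log scale) of every peak in the list (grey) and of the 13 peaks by role (coloured). The IL1A peak, at 808 bp and 34 tags, lies at the long edge of the peaks of its height, while the NFKBIA and BCL3 peaks, at 208 and 229 bp, lie in the middle of theirs.

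The windows of the 10 genes covered 1.17 Mb after overlaps were merged and held 11.1 peaks per Mb, against 5.64 per Mb over the windows of all protein-coding genes. Beside the 50 kb limit, the farthest summit inside was that of RELB at 40.98 kb. The nearest ones outside were the peak inside IL1A, 52.8 kb from IL1B, and a peak of 13 tags 55.9 kb from RELB. NFKBIA, IL1A and NFKB2 followed, with summits at 64.9 kb (16 tags), 67.5 kb (32 tags) and 71.0 kb (35 tags).

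**Figure D4:**
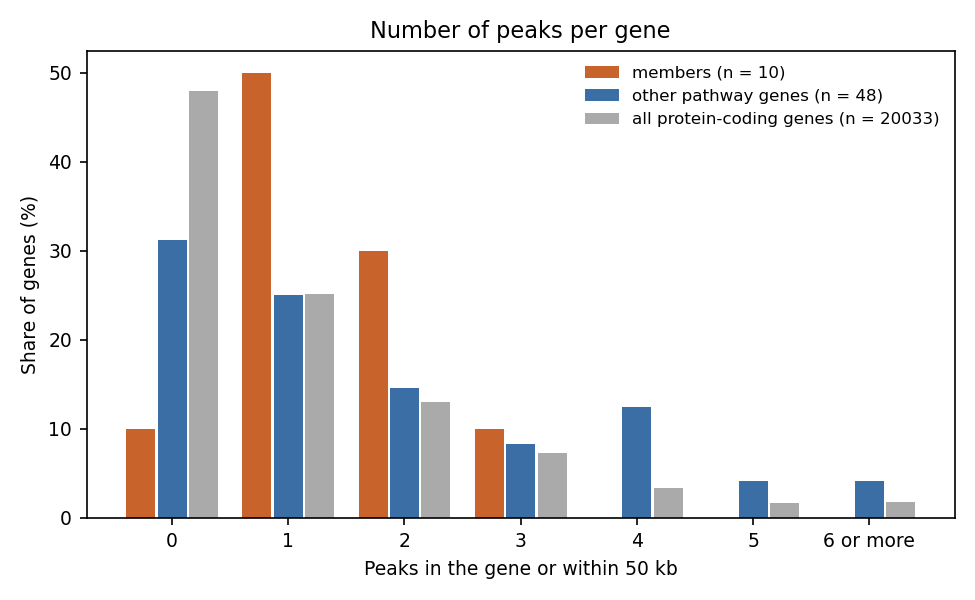
Share of genes (y axis, %) by the number of peaks in the gene or within 50 kb (x axis) for the 10 genes described, the 48 other pathway genes and all 20033 protein-coding genes. A single gene of the 10, which is 10%, has no peak, against 31.3% of the pathway genes and 47.9% of all genes, and none of the 10 has over 3.

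The other genes of the pathway were taken from a list of 48 ordered by role, also chosen with earlier results of these data known. Of these, 33 had a peak in the gene or within 50 kb, against the 52.1% of all protein-coding genes, and 12 had a summit inside, against 18.7%. Together they had 84 peaks with a median pileup of 18 tags (10 to 56). By role, 13 of 16 sensors, receptors and adaptors, 2 of 3 genes of the IkappaB kinase complex and 3 of 6 feedback inhibitors had a peak. So did 11 of 13 genes grouped as cytokine outputs and receptors, and 3 of 5 other targets. The group of 13 includes the transcription factor gene STAT3, counted through a peak of 15 tags 36.2 kb away inside STAT5B. The remaining Rel and IkappaB genes stood lowest, with 1 of 5. REL, NFKBIB, NFKBIZ and NFKBID had 0, and the peak of NFKBIE (29 tags) lay 43.8 kb away inside AARS2. None of these differences between roles was tested.

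**Figure D5:**
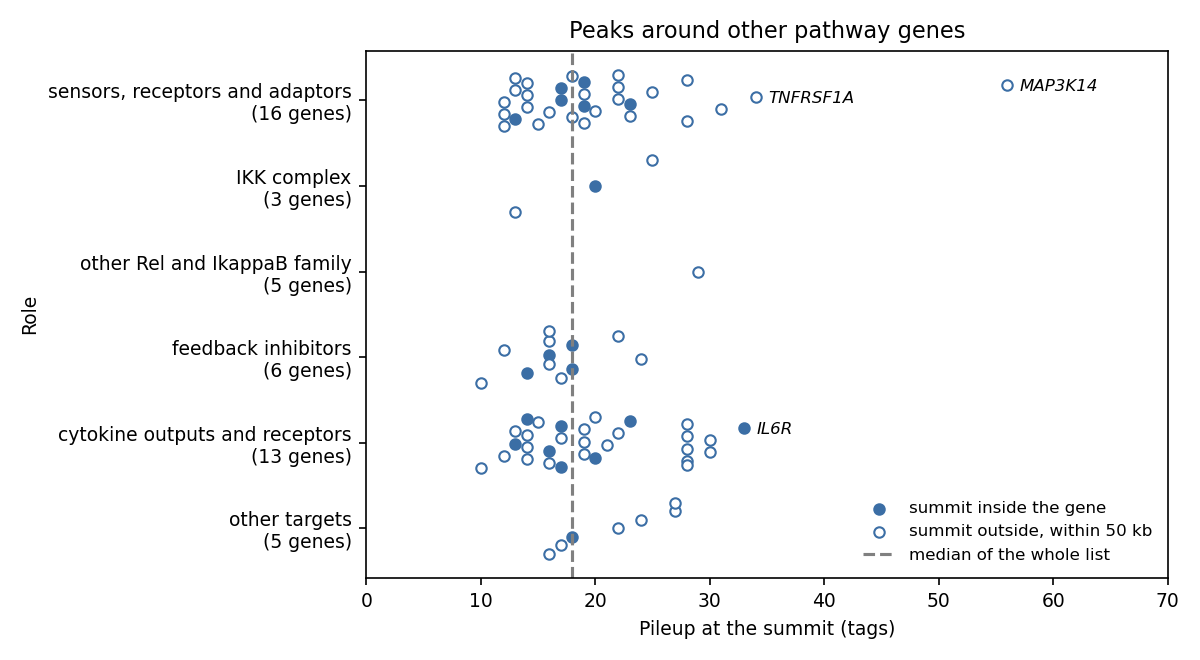
Pileup (x axis, tags) of the 84 peaks around the 48 other pathway genes by role (y axis, vertical spread for clarity only). Filled points have the summit inside the gene, open points outside it within 50 kb, and the dashed line is the median of the whole list. The MAP3K14 peak stands apart at 56 tags.

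The tallest peak near a pathway gene, from 45329709 to 45330158 on chromosome 17, had 56 tags (42.3 to 72.7), a fold enrichment of 17.8 and a length of 450 bp. It lay 12.9 kb from MAP3K14, the nearest protein-coding gene, which encodes the kinase NIK of the non-canonical pathway. It was taller than all 13 peaks described above, and its interval overlapped with that of the IL1A peak. Next came a peak of 34 tags (23.5 to 47.5), 34.3 kb from the TNF receptor gene TNFRSF1A and inside LTBR and SCNN1A. IL6R, which encodes the receptor of interleukin-6, had 6 peaks, 5 of them inside the gene, the best with 33 tags (22.7 to 46.3) and a fold enrichment of 5.22. At that summit the local background was 2.50 times the genome level, and the antisense gene IL6R-AS1 also covers it. TRAF6, an adaptor of interleukin-1 signalling, had 3 peaks 27.9 to 31.3 kb away inside PRR5L, the best with 31 tags (21.1 to 44.0). Tied at 30 tags (20.2 to 42.8) were CSF2, the gene of the growth factor GM-CSF, with a summit 28 bp before its start, and IL36G, whose peak lay 38.8 kb away and nearer to IL37.

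A peak lay over a promoter window of CSF2, OSMR, IL6R and BIRC3, 4 of the 44 pathway genes with such a window, against 2.44% of protein-coding genes. OSMR encodes a receptor subunit for oncostatin M and BIRC3 encodes cIAP2, an inhibitor of cell death that NF-kappaB induces. The peaks had 28 tags at OSMR (197 bp), 28 at IL6R (125 bp) and 24 at BIRC3 (206 bp), with fold enrichments of 9.06, 6.99 and 7.58. At IL6R the summit lay 75 bp before the start and inside IL6R-AS1, so this peak cannot be given to 1 gene of the pair. The local background there was 1.43 times the genome level. These promoters are shown beside that of NFKB1 because they are the pathway promoters under a peak. Each is the 250 bases before the start on the plus strand, at chr5:132073539-132073788 for CSF2, chr5:38845762-38846011 for OSMR, chr1:154405093-154405342 for IL6R and chr11:102317234-102317483 for BIRC3. Capitals mark the bases in the peak.
CSF2: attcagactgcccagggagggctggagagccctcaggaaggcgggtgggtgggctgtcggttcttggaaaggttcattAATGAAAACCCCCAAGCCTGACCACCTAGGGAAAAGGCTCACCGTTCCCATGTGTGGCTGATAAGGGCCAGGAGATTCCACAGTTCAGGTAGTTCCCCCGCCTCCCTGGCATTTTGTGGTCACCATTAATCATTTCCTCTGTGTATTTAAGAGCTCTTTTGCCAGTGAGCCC
OSMR: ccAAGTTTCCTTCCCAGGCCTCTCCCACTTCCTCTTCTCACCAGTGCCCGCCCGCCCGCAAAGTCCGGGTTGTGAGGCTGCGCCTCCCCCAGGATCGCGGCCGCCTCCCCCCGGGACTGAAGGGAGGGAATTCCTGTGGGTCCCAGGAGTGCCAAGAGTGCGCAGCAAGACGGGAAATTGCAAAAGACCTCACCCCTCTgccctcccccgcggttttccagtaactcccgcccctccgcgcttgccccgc
IL6R: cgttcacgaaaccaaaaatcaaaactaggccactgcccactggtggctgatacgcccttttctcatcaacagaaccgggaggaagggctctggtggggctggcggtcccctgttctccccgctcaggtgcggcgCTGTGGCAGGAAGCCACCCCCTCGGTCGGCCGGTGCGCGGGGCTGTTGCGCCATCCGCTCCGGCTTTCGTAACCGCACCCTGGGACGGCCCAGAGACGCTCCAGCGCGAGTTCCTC
BIRC3: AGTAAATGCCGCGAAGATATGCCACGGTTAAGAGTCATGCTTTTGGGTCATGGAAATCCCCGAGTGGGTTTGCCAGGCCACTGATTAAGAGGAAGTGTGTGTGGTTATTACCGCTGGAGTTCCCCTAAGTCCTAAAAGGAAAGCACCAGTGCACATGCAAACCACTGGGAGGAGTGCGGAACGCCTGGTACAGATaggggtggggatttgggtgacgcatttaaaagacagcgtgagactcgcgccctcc

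Unlike the NFKB1 window, those of CSF2, IL6R and BIRC3 each held 1 RUNX core in the peak. In CSF2 it was TGTGGT at −58 to −53 from the start, in BIRC3 TGTGGT at −151 to −146, and in IL6R TGCGGT on the minus strand at −45 to −40. OSMR held 0. BIRC3 also held 2 NF-kappaB consensus matches in its peak. A match is a run of letters in these windows and was not tested as a binding site.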

How the data were processed

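The authors deposited 1 peak list, made with MACS 2.1.2 from the RUNX1 ChIP against the input at a q limit of 0.05. Reads were aligned with Bowtie2 to hg38 per the submitters' processing notes. Per the file headers, 54 bp tags were lengthened to 74 bp, duplicates beyond 1 tag per position were dropped, and the input, as the larger library, was scaled down. The deposited pileup is a signal of tags at the summit and can reach 148. The deposited fold is a ratio, pileup plus 1 over local background plus 1, and the deposited q-value is given as −log10. These are the authors' values per peak. The local background was solved from pileup and fold enrichment and compared with kept ChIP tags × 74 bp over 2.7 Gb.

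Gene intervals, starts and promoter windows (250 bases before to 50 after a start) came from RefSeq tables of GRCh38.p14, which do not mark exons. All 58 symbols (10 and 48) were found. The gene list, the pathway list and the rules were chosen with earlier results of these data known. The NF-kappaB consensus was searched as a degenerate motif. Genes named were the 10, pathway genes with a peak, in full for the 5 with the tallest peak and a tie, and the nearest protein-coding genes of peaks. RefSeq symbols without a peak were named to complete a group. The peaks are from 1 library of each kind, so no test was made. Intervals are exact 95% Poisson intervals. Counting was tested on simulated data. Python 3.11.15, pandas 2.3.3 and scipy 1.17.1 were used. The alternatives raised the −log10 q limit to 2 (a q of 0.01), kept peaks enriched at least 5-fold, used windows of 0, 5 and 100 kb, counted overlap by any base, merged peaks within 1 kb, or counted the nearest protein-coding gene only.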

Additional observations from a re-analysis of the deposited data

How the results depend on the processing

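Each of 3 counts was recomputed under 8 alternatives, and 15 of the 24 values stayed within 1.5 times the value reported. The number of the 10 genes with a peak was 9. It fell to 5 when peaks had to be enriched at least 5-fold (35.1% of all protein-coding genes) and to 5 with the gene interval alone (18.7%). With 5 kb on either side it was 6, and with the nearest protein-coding gene only it was also 6. Over all protein-coding genes the lower quartile of the distance to the nearest summit was 5.26 kb. For the nearest-gene setting no share of all protein-coding genes was computed. Both values of 6 stand at the limit of 1.5 times and are among the 15. The 13 peaks became 6 at that enrichment, 5 with the gene interval alone, 6 with 5 kb on either side, 22 with 100 kb, and 8 when a peak counted for its nearest protein-coding gene only. Of the 48 pathway genes, those with a peak went from 33 to 12 with the gene interval alone and 18 with 5 kb, to be read beside the same values over all protein-coding genes. The 9 values outside 1.5 times follow from the setting, which drops or adds peaks. IL6 had 0 peaks under each of the 8. For single genes, 50 of 80 values stayed within that range. No paired analysis was possible because there was 1 library of each kind. A peak of 13 tags has an interval of 6.92 to 22.2, so ranks among low peaks are not resolved at this depth.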

Other observations

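IL1A and IL1B stand at one end of the interleukin-1 ligand cluster, 9 genes over 360 kb of chromosome 2, whose other members were looked up after the peaks of these genes had been seen. The cluster held 4 peaks. Of these, 3 were those described at IL1A and IL1B, and the other, from 112938982 to 112939276 with 30 tags (exact 95% Poisson interval 20.2 to 42.8) and a fold enrichment of 8.25, lay 20.3 kb from IL37, a ligand known to dampen inflammation. IL36A, IL36B, IL36RN, IL1F10 and IL1RN, the last encoding the receptor antagonist, had 0 peaks within 50 kb. All 4 peaks thus lay on the IL1A side of IL36G.

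The receptor cluster on the same chromosome, 6 genes over 461 kb, held 5 peaks between its outer ends. IL1R1, the signalling receptor of interleukin-1, had 2 inside it, with 23 tags (14.6 to 34.5) and 17 tags (9.90 to 27.2). IL1R2, the decoy receptor, had 1 inside it with 14 tags (7.65 to 23.5), and the remaining 2 lay 4.33 and 5.13 kb past it. The farther of those had 12 tags and a −log10 q of 1.96, and is lost at that limit too. With 50 kb added on either side, IL1R2 had 4 peaks, the tallest of 33 tags and beyond the end of the cluster, and IL18RAP had 1 of 19 tags. IL1RL1 and IL18R1 had 0 peaks within 50 kb. The local background was 2.50 times the genome level at 2 of the 5 peaks, whose fold enrichments were 3.53 and 2.76. These are values of 1 library, and no difference between the clusters was tested.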
